A study of Caenorhabditis elegans with 9 samples.

Results

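The genes described here are the yolk protein genes of Caenorhabditis elegans, vit-1 to vit-6, together with rme-2, the gene of the oocyte receptor that takes up yolk. They were taken by name from the annotation of the Affymetrix C. elegans array, and the rule used no measured value. Of these 7 genes, 6 had a probeset assigned to them alone: rme-2 and the 5 vitellogenins vit-1, vit-2, vit-4, vit-5 and vit-6. They were followed among 17118 genes measured on 9 arrays. No probeset was assigned to vit-3, so no value is given for it. Wild type N2 worms were left without arsenite (control) or were exposed for 6 h at 22 °C to sodium arsenite at 0.003% (low dose) or 0.03% (high dose, both w/v), with 3 arrays per group. All groups share the strain and CeHM, a liquid medium that holds no bacteria, and RNA came from whole worms. The larval stage of the worms is L3 in the sample labels, L1 in the methods and L4 in the results of the study.

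Vitellogenins are large lipid-binding proteins related to the apolipoprotein B of vertebrates. In the hermaphrodite, intestinal cells make them from the late larval to adult transition onward and secrete them into the body cavity, and growing oocytes take them up. The uptake runs through RME-2, a member of the low density lipoprotein receptor superfamily, and clathrin-coated vesicles. The products of vit-1 to vit-5 are the large yolk proteins, while the product of vit-6 is cleaved into smaller ones. Their transcription is controlled by GATA factors such as ELT-2 and by the UNC-62, CEH-60 and PQM-1 proteins. The genes vit-1 to vit-5 lie on chromosome X, where vit-3 and vit-4 are next to each other with 0 protein coding genes between them. The genes vit-6 and rme-2 lie on chromosome IV.

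The authors' values, 1 for each probeset on each array, are log2 signals, and every level below is on that scale. Array medians ran from 8.42 to 8.52. Pearson's r over all genes, which are no replicates of each other, was 0.940 to 0.952 between arrays of the same group. The lowest of the values of the 6 genes was 7.34, above 6.26, below which the dimmest 25% of genes lie. Groups were compared in limma, and a gene was called at an adjusted p of at most 0.05 (Benjamini-Hochberg over all 17118 genes) and a change of at least 1.2 fold. The labels and the methods call the samples biological replicates, with an RNA isolation for each. Separate cultures are not mentioned, so the p-values rest on a spread between samples that may be technical. Both doses were set against the same control arrays. In RNA of whole worms, fewer cells of a type and less RNA per cell cannot be told apart.

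The vitellogenins were lower than in control worms at both doses, and for most of them the lowest level was found at the low dose. The level of vit-2 was 11.01, 11.42 and 10.96 in control worms, 8.72, 9.40 and 9.38 at the low dose and 10.18, 10.85 and 10.41 at the high dose. That of vit-6 was 12.85, 13.18 and 12.99 in control worms, 11.28, 11.73 and 11.17 at the low dose and 12.07, 12.26 and 12.31 at the high dose. For both genes none of the 3 groups overlapped, and the high dose arrays lay between the low dose and control arrays. The level of vit-4 was 11.11, 11.34 and 11.16 in control worms, 9.07, 9.29 and 9.06 at the low dose and 9.30, 9.80 and 10.19 at the high dose. The order of its groups was the same as for vit-2, again without overlap, but the nearest arrays of the doses were 9.30 at the high dose, against 9.29 at the low dose.

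For vit-5 and vit-1 the arrays did not separate the doses. The level of vit-5 was 10.52, 11.18 and 10.80 in control worms, 9.06, 9.35 and 8.81 at the low dose and 8.83, 9.71 and 10.02 at the high dose. The level of vit-1 was 9.997, 10.35 and 10.06 in control worms, 8.25, 8.39 and 8.01 at the low dose and 7.34, 8.56 and 8.28 at the high dose. All arsenite arrays of both genes lay below all control arrays, while the arrays of the doses overlapped. The spread was widest at the high dose, with an SD of 0.64 for vit-1 and 0.62 for vit-5 (n = 3 each). Replicate 1 was the lowest high dose array for 5 of the 5 vitellogenins, which are no replicates of each other.

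The yolk receptor gene had another order. The level of rme-2 was 11.25, 11.34 and 11.31 in control worms, 10.61, 10.77 and 10.75 at the low dose and 10.34, 10.22 and 10.60 at the high dose. Its groups did not overlap, and its lowest group was the high dose rather than the low dose. The nearest arrays of the doses were 10.60 at the high dose, against 10.61 at the low dose.

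**Figure D1:**
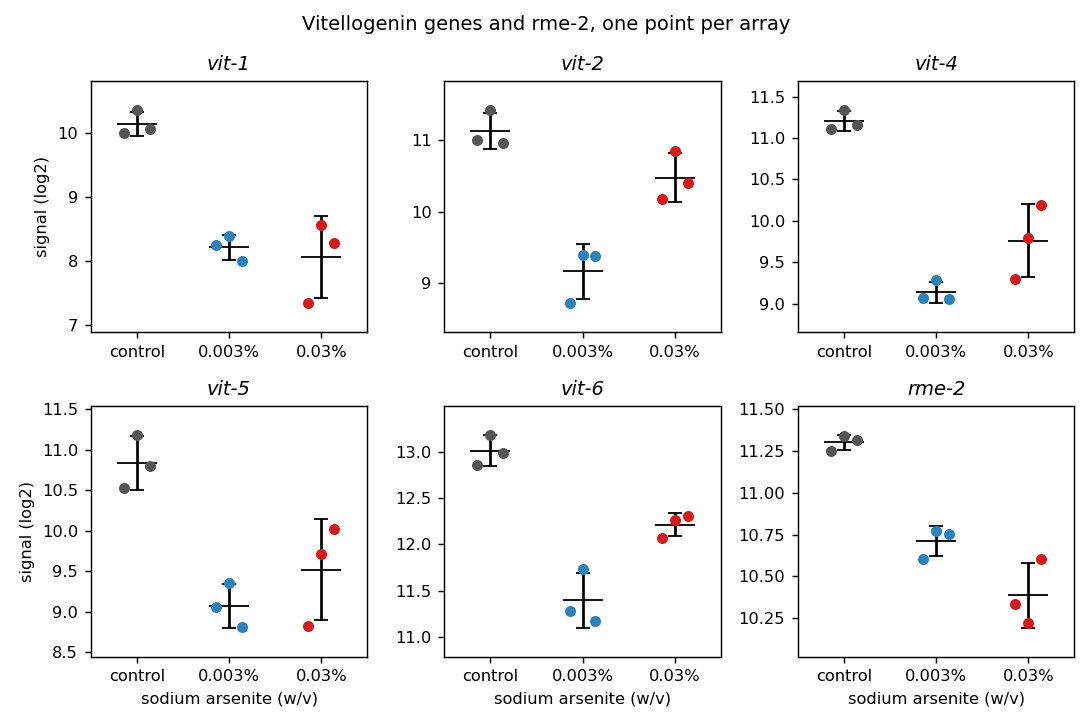
Signal on the log2 scale (vertical axes, each with its own range that does not start at 0) of vit-1, vit-2, vit-4, vit-5, vit-6 and rme-2 in control worms and at 0.003% and 0.03% sodium arsenite. Points are arrays, and bars give the mean and SD of 3 arrays. In all 6 panels every arsenite array lies below every control array, and in those of vit-2, vit-4 and vit-6 the high dose lies above the low dose.

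At the low dose 4 vitellogenins were down regulated, in a comparison where few genes passed the test. In limma 4 of the 6 genes were called lower and 0 higher, while 0.508% of all genes tested were called lower and 1.05% higher (1.55% in either direction). The level of vit-4 averaged 9.14 ± 0.13 at the low dose and 11.20 ± 0.12 in control worms (SD, n = 3 each), a log2 difference of -2.06 with an SE of 0.22 (limma adjusted p = 0.00422). This was 4.18 fold lower, or 23.9% of the control signal. The level of vit-6 averaged 11.40 ± 0.30 at the low dose and 13.01 ± 0.17 in control worms (SD, n = 3 each), and fell by 1.61 on the log2 scale, with an SE of 0.18 (limma adjusted p = 0.00473). For vit-2 the means were 9.17 ± 0.39 at the low dose and 11.13 ± 0.25 in control worms (SD, n = 3 each), a log2 difference of -1.96 with an SE of 0.26 (limma adjusted p = 0.0111).

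The gene vit-1 fell by 1.92 on the log2 scale at the low dose, with an SE of 0.31 (limma adjusted p = 0.0268), to 26.4% of the control signal. The difference of vit-5 was -1.76 (SE 0.33, 95% interval -2.53 to -0.99), close to those of the other vitellogenins, but did not pass the test (limma adjusted p = 0.0551). Over the main and alternative fits its limma adjusted p ran from 0.00056 to 0.168, on both sides of the threshold. The difference of rme-2 was -0.59 (SE 0.13, 95% interval -0.89 to -0.30, limma adjusted p = 0.0887), which did not pass either. All 6 genes had low dose arrays that lay entirely below the control arrays, whereas 9.59% of all genes tested lay entirely below and 8.62% entirely above, and their median log2 difference was -1.84, against -0.01 over all genes. Leaving out any 1 array of the low dose or control ended the call of vit-1, with an adjusted p of up to 0.103 from limma. The call of vit-1 also ended without high dose replicate 3 (limma adjusted p = 0.0524).

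At the high dose, the receptor gene and 4 vitellogenins were down regulated. In limma 5 of the 6 genes were called lower and 0 higher, whereas 11% of all genes tested were called lower and 9% higher (20% in either direction). The largest of these decreases was that of vit-1, which averaged 8.06 ± 0.64 at the high dose and 10.14 ± 0.19 in control worms (SD, n = 3 each) and fell by 2.07 on the log2 scale, with an SE of 0.31 (limma adjusted p = 0.00283). The gene vit-4 averaged 9.76 ± 0.44 at the high dose and 11.20 ± 0.12 in control worms (SD, n = 3 each), a log2 difference of -1.44 with an SE of 0.22 (limma adjusted p = 0.00333). The signal of vit-1 was 23.7% and that of vit-4 36.9% of control. The receptor gene rme-2 averaged 10.39 ± 0.20 at the high dose and 11.30 ± 0.05 in control worms (SD, n = 3 each), and fell by 0.91 on the log2 scale, with an SE of 0.13 (limma adjusted p = 0.00206).

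The genes vit-5 and vit-6 fell by 1.31 (SE 0.33, adjusted p = 0.0290) and by 0.80 (SE 0.18, adjusted p = 0.0171) on the log2 scale at the high dose in limma. The difference of vit-2 was -0.65 (SE 0.26, 95% interval -1.25 to -0.05), which did not pass the test (limma adjusted p = 0.129), although its high dose arrays lay below its control arrays. The high dose arrays of all 6 genes did so, as they did for 21.7% of all genes tested, while 16.7% lay entirely above. The median log2 difference of the 6 genes was -1.11, against -0.05 over all genes. The count of 5 was 3 without high dose replicate 1, control replicate 2 or control replicate 3, each of which ended the calls of vit-5 and vit-6 (adjusted p of 0.0503 to 0.0944 from limma over both genes and these 3 settings). The call of vit-5 alone also ended without high dose replicate 2 (limma adjusted p = 0.0578).

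Set against each other, the doses differed for vit-2 and vit-6, both of them higher at the high dose. The gene vit-2 averaged 10.48 ± 0.34 at the high dose, against 9.17 ± 0.39 at the low dose (SD, n = 3 each), a log2 difference of 1.31 (limma SE 0.26 and adjusted p = 0.0121) or 2.48 fold. The gene vit-6 averaged 12.21 ± 0.12 at the high dose, against 11.40 ± 0.30 at the low dose (SD, n = 3 each), a log2 difference of 0.82 (limma SE 0.18 and adjusted p = 0.0178). Thus 2 of the 6 genes were called higher at the high dose and 0 lower, while 7.34% of all genes tested were called higher and 9.49% lower (16.8% in either direction). The difference of vit-4 was 0.62 (95% interval 0.11 to 1.14, limma adjusted p = 0.103) and that of vit-5 0.45 (95% interval -0.32 to 1.22, limma adjusted p = 0.442). For vit-1 it was -0.16 (95% interval -0.87 to 0.56, limma adjusted p = 0.798) and for rme-2 -0.32 (95% interval -0.62 to -0.03, limma adjusted p = 0.141). The dose groups did not overlap for vit-2, vit-4 and vit-6, higher at the high dose as were 15.8% of all genes tested, and for rme-2, lower there as were 18.2%. The call of vit-6 ended without any 1 of high dose replicates 2 and 3 and low dose replicates 1 and 3 (adjusted p of up to 0.0604 from limma), and with only the dose groups fitted (limma adjusted p = 0.05001, just above the threshold).

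**Figure D2:**
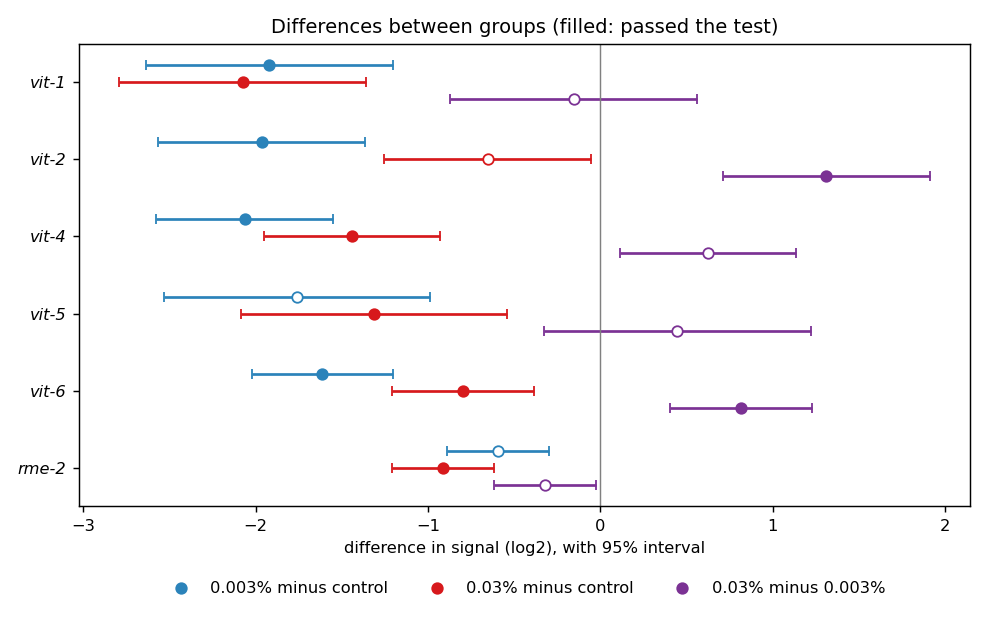
Differences in signal between groups on the log2 scale (horizontal axis) for the 5 vitellogenins measured and rme-2, with 95% intervals from limma. Filled points passed the test. All differences from control lie below 0, while the difference of the high from the low dose lies above 0 for vit-2, vit-4, vit-5 and vit-6 and below 0 for vit-1 and rme-2.

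Changes of the genes relative to each other were taken within each array, where the level of another gene of the same array serves as the reference. The level of vit-1 minus that of vit-2 was -2.42 ± 0.37 at the high dose, against -0.95 ± 0.45 at the low dose and -0.99 ± 0.08 in control worms (SD, n = 3 each). The high dose arrays lay entirely below those of both other groups, while the low dose and control arrays overlapped. The level of vit-6 minus that of rme-2 was 1.83 ± 0.18 at the high dose, against 0.69 ± 0.27 at the low dose and 1.71 ± 0.12 in control worms (SD, n = 3 each). Here it was the low dose arrays that stood apart. Of the 15 pairs of the 6 genes, the high and low dose arrays did not overlap for 7, and the smallest exact two-sided permutation p was 0.1, which is the smallest that 3 against 3 arrays allow (0.214 after Benjamini-Hochberg adjustment over the 15 pairs). No pair could therefore pass the test. The 15 pairs share their genes, and no share over pairs of other genes was taken, so the count of 7 is a description alone.

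The further probesets of the vitellogenins gave differences of the same sign in all 3 comparisons, except for a dim probeset of vit-4. The second probeset of vit-6 gave 12.45, 12.50 and 12.28 in control worms, 10.29, 10.81 and 10.49 at the low dose and 11.36, 11.92 and 11.70 at the high dose. Its difference between high and low dose was 1.13 (SE 0.19, limma adjusted p = 0.00722 over all probesets). The second probeset of vit-4 passed the test between the doses as well, with a difference of 0.84 (SE 0.22, limma adjusted p = 0.0426 over all probesets). The remaining probeset of vit-4 was dim and read 4.77, 7.10 and 6.41 in control worms, 3.09, 4.62 and 4.75 at the low dose and 7.02, 7.43 and 6.98 at the high dose. Its high dose difference from control was 1.05 (SE 0.66, 95% interval -0.48 to 2.58, limma adjusted p = 0.345 over all probesets), opposite in sign to the other vit-4 probesets. Its difference between high and low dose, 2.99 (SE 0.66, limma adjusted p = 0.0207 over all probesets), had the same sign as theirs. With the mean of its 3 probesets as the level of vit-4, the high dose difference from control was -0.53 and the call was lost (limma adjusted p = 0.303). The high dose difference from the low dose was then 1.48 and passed (limma adjusted p = 0.0165). All 3 probesets of vit-4 and the probeset of vit-5 are marked _x_at, which means that they may also detect related transcripts, and 2 further probesets are assigned to vit-4 and vit-5 together. These 2 lay -2.02 and -1.82 from control at the low dose and -1.49 and -1.04 at the high dose on the log2 scale. The values of vit-4 and vit-5 may therefore hold signal of each other or of vit-3.

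**Figure D3:**
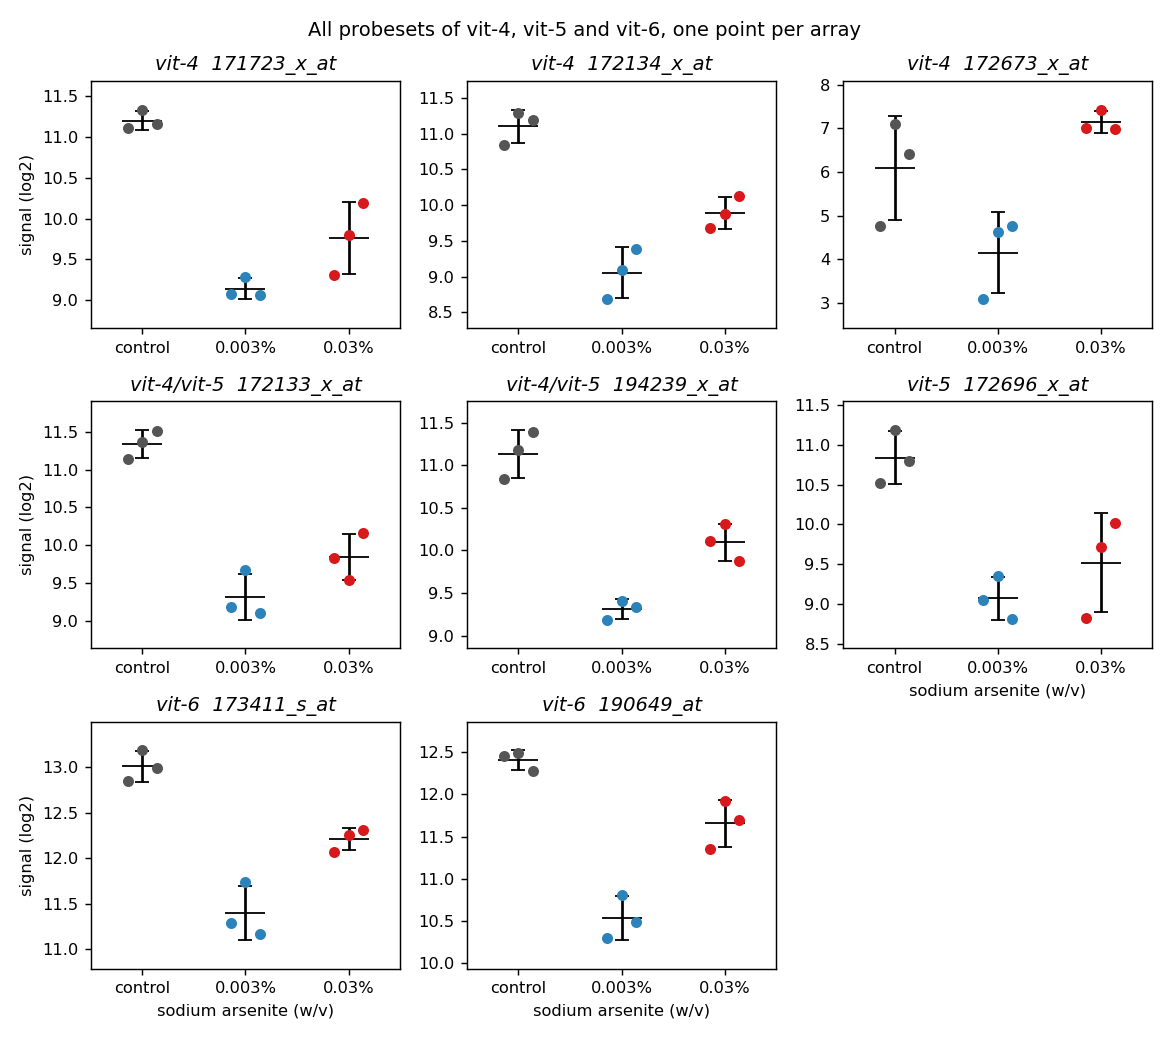
Signal on the log2 scale (vertical axes, each with its own range that does not start at 0) of every probeset assigned to vit-4, vit-5 or vit-6, in control worms and at 0.003% and 0.03% sodium arsenite. Points are arrays, and bars give the mean and SD of 3 arrays. The low dose mean is the lowest in all 8 panels, and the dim probeset of vit-4 is the panel where the high dose mean exceeds that of control.

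The share of called genes among the factors that act on vitellogenin transcription was near that over all genes. Of 16 listed regulators, 0 were called at the low dose in limma, where 1.55% of all genes tested were called. An unadjusted p under 0.05 was reached by 0 of the 16 and by 11.7% of all genes tested. The median log2 difference of the regulators was -0.07. At the high dose 2 were called higher and 2 lower, with a median of 0.10, beside 9% and 11% of all genes tested. The homeodomain gene unc-62, an activator of vitellogenin genes, averaged 9.36 ± 0.18 at the high dose and 10.21 ± 0.18 in control worms (SD, n = 3 each), a log2 difference of -0.85 with an SE of 0.16 (limma adjusted p = 0.00834). The gene lin-29, a heterochronic factor of the larval to adult switch, fell by 0.87 on the log2 scale, with an SE of 0.15 (limma adjusted p = 0.00583). The zinc finger gene pqm-1 averaged 12.58 ± 0.10 at the high dose and 11.69 ± 0.14 in control worms (SD, n = 3 each), a log2 difference of 0.90 (limma SE 0.12 and adjusted p = 0.00144), and the intestinal GATA factor gene elt-7 rose by 0.92 (limma SE 0.14 and adjusted p = 0.00285). The differences of elt-2, the main GATA factor of the intestine, and of ceh-60 were 0.72 (adjusted p = 0.0918) and -0.50 (adjusted p = 0.140) at the high dose in limma and did not pass. Those of daf-16, the FOXO factor of insulin signalling, and of mab-3, which represses vitellogenins in males, were -0.10 (SE 0.18) and -0.58 (SE 0.57) and did not pass either. At the low dose the differences of unc-62 and pqm-1 were 0.00 (95% interval -0.37 to 0.37) and -0.16 (95% interval -0.42 to 0.11).

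The calls among genes of yolk secretion and endocytosis were likewise near the share over all genes, while high dose arrays entirely above control were more frequent. Of 26 listed, 0 were called at the low dose in limma, where 1.55% of all genes tested were called. An unadjusted p under 0.05 was reached by 0 of the 26 and by 11.7% of all genes tested. The median log2 difference of the list was 0.08. At the high dose 3 were called higher and 3 lower, with a median of 0.18, beside 9% and 11% of all genes tested. The high dose arrays lay entirely above those of control worms for 12 of the 26 (16.7% of all genes tested). They lay entirely below for 6 (21.7%). At the low dose the arrays lay entirely above for 5 (8.62%) and entirely below for 0 (9.59%). The gene with the lowest difference at the high dose was dsc-4, which encodes the microsomal triglyceride transfer protein that loads lipid onto such lipoproteins. It averaged 9.81 ± 0.13 at the high dose and 10.91 ± 0.10 in control worms (SD, n = 3 each) and fell by 1.10 on the log2 scale, with an SE of 0.15 (limma adjusted p = 0.00181). The clathrin adaptor gene aps-2 and the COPII coat gene sec-23 had log2 differences of -0.81 (SE 0.17) and -0.54 (SE 0.13) there. The dynamin gene dyn-1, which acts in the pinching off of vesicles, the late endosome gene rab-7 and rme-6, an activator of the early endosome GTPase, rose by 0.98 (SE 0.24), 0.77 (SE 0.13) and 0.58 (SE 0.16) on the log2 scale. The recycling gene rme-1 and the endosomal gene rme-8 had differences of 0.59 (adjusted p = 0.137) and -0.09 (adjusted p = 0.812) in limma, which did not pass.

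The tissue that makes yolk was checked by 16 intestine genes. Of these, 0 were called at the low dose in limma, where 1.55% of all genes tested were called. An unadjusted p under 0.05 was reached by 3 of the 16 and by 11.7% of all genes tested. The median log2 difference of the list was -0.17. The mean level of the list per array ran from 12.44 to 12.54 at the low dose and from 12.58 to 12.62 in control worms, and the lowest single value was 9.23 at the low dose. Of the 16 genes, 12 had a low dose difference below 0, and the low dose arrays lay entirely below those of control worms for 4 and entirely above for 1, beside 9.59% and 8.62% of all genes tested. The differences ran from -0.44 for the metallothionein gene mtl-2 (95% interval -0.69 to -0.19, limma adjusted p = 0.137) to 0.42 for the peptide transporter gene pept-1 (limma adjusted p = 0.305), which was chosen after its values were seen. The intestine genes were mostly lower at the high dose, where 9 were called lower and 1, elt-7 (like elt-2 also among the regulators), higher, with a median log2 difference of -0.64. Of all genes tested, 11% were called lower and 9% higher there. The mean level per array was then 11.89 to 11.93, against 12.58 to 12.62 in control worms. At the high dose mtl-2, the acid phosphatase gene pho-1 and the cysteine protease gene cpr-1 had log2 differences of -2.13 (SE 0.11), -1.68 (SE 0.18) and -1.49 (SE 0.12). Their part in the lower vitellogenin signals of the high dose was not tested.

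The cells that take up yolk were checked by 19 oocyte and eggshell genes, all of which had a log2 difference below 0 at both doses. At the high dose 10 were called lower in limma, with a median of -0.69, while 11% of all genes tested were called lower. At the low dose 3 were called lower, with a median of -0.58, while 0.508% of all genes tested were. The arrays lay entirely below those of control worms for 15 of the 19 at the high dose (21.7% of all genes tested) and for 17 at the low dose (9.59%). The mean level per array was 10.73 to 10.92 in the high dose group and 10.80 to 10.91 at the low dose, against 11.42 to 11.50 in control worms. The chitin synthase gene chs-1, puf-5 and oma-2, which encode RNA-binding proteins of oocytes, had log2 differences of -1.06 (SE 0.17), -1.02 (SE 0.14) and -0.99 (SE 0.18) at the high dose. The difference of rme-2, itself expressed in oocytes, was -0.91 (high dose) and -0.59 (low dose), within the range of this list, which ran from -1.06 to -0.11 at the high dose and from -1.37 to -0.08 at the low dose. The part of these cells in the lower rme-2 signal was not tested.

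The adult cuticle collagen gene col-19 had the same order of groups as vit-2 and vit-6. Its level was 12.37, 12.37 and 12.13 in control worms, 10.77, 10.87 and 10.86 at the low dose and 11.48, 11.96 and 11.55 at the high dose. It fell by 1.46 at the low dose (SE 0.15, adjusted p = 0.00400) and by 0.63 at the high dose (SE 0.15, adjusted p = 0.0252) on the log2 scale, and the doses differed by 0.83 (SE 0.15, adjusted p = 0.00937) in limma. Of the 6 listed genes of the adult and late larval cuticle, 4 were measured. The other 3 of these, among them the collagen genes bli-1 and bli-2, were called lower at the high dose, as were 11% of all genes tested, and had differences of 0.04 to 0.05 at the low dose. The mean level of the 4 genes per array was 12.81 to 13.02 in the high dose group and 13.27 to 13.51 at the low dose, against 13.66 to 13.83 in control worms. Like the vitellogenins, col-19 is known as a gene expressed in adults, and the part of the worms' developmental stage in the lower vitellogenin signals was not tested.

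Between the doses, 14 of the 19 oocyte and eggshell genes were lower at the high dose and 5 higher, with a median log2 difference of -0.09, and 2 were called higher and 1 lower in limma (7.34% and 9.49% of all genes tested). The 3 genes of the list called at the low dose, chosen after their values were seen, were perm-2, perm-4 and egg-2, which did not share an order of groups. The eggshell genes perm-2 and perm-4 stood lowest at the low dose. The gene perm-2, which encodes a protein of the eggshell's permeability barrier, read 11.46, 11.60 and 11.76 in control worms, 10.14, 10.18 and 10.39 at the low dose and 11.19, 11.39 and 10.75 at the high dose. It fell by 1.37 on the log2 scale at the low dose, with an SE of 0.18 (limma adjusted p = 0.0119) and was higher at the high than at the low dose by 0.87 (limma SE 0.18 and adjusted p = 0.0158). For perm-4 the decrease at the low dose was smaller (log2 difference -0.57, SE 0.10, limma adjusted p = 0.0427), and its high dose difference from control was -0.14 (limma adjusted p = 0.414). The gene egg-2, which encodes an oocyte surface protein needed for fertilization, stood lowest at the high dose, with a difference from the low dose of -0.37 (limma adjusted p = 0.0469).

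**Figure D4:**
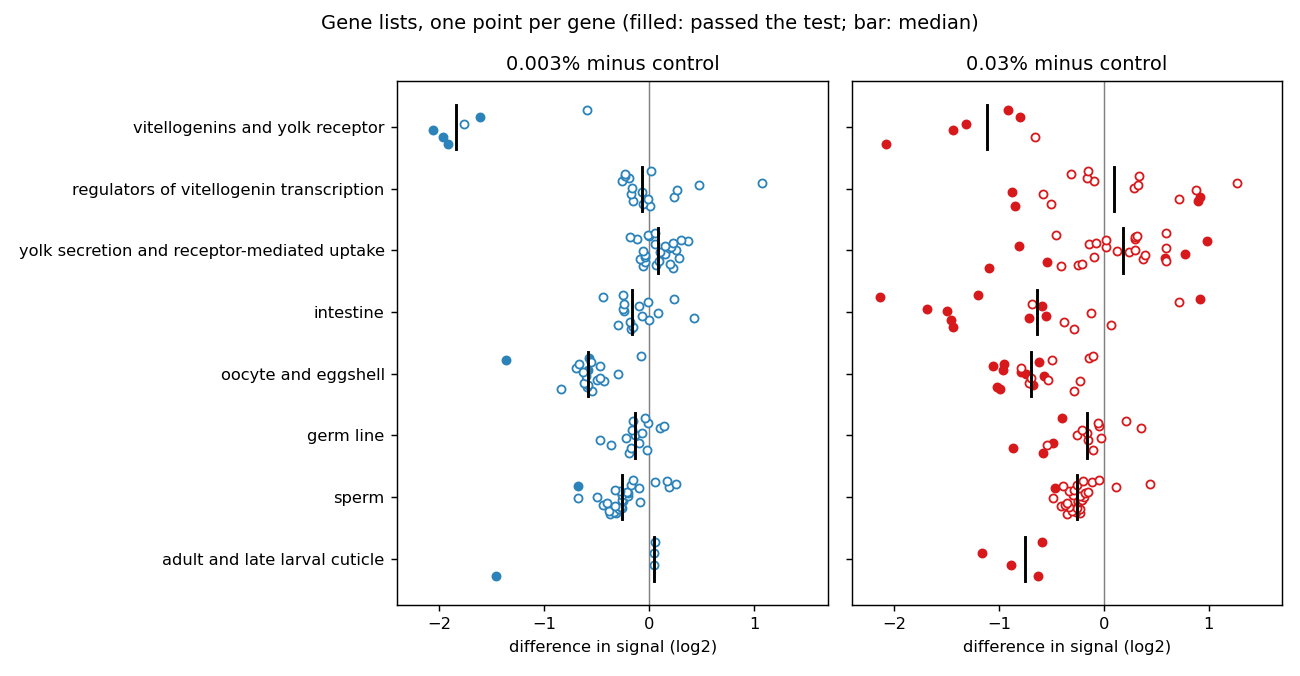
Differences in signal from control on the log2 scale (horizontal axes) at the low dose (left) and the high dose (right) for the yolk genes and 7 other gene lists. Points are genes, filled where they passed the test, and black bars are medians. At the low dose the median of the yolk genes is -1.84, with rme-2 at -0.59, and the medians of the other lists lie between -0.58 and 0.08, with single genes as low as -1.46 (col-19) and -1.37 (perm-2).

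**Figure D5:**
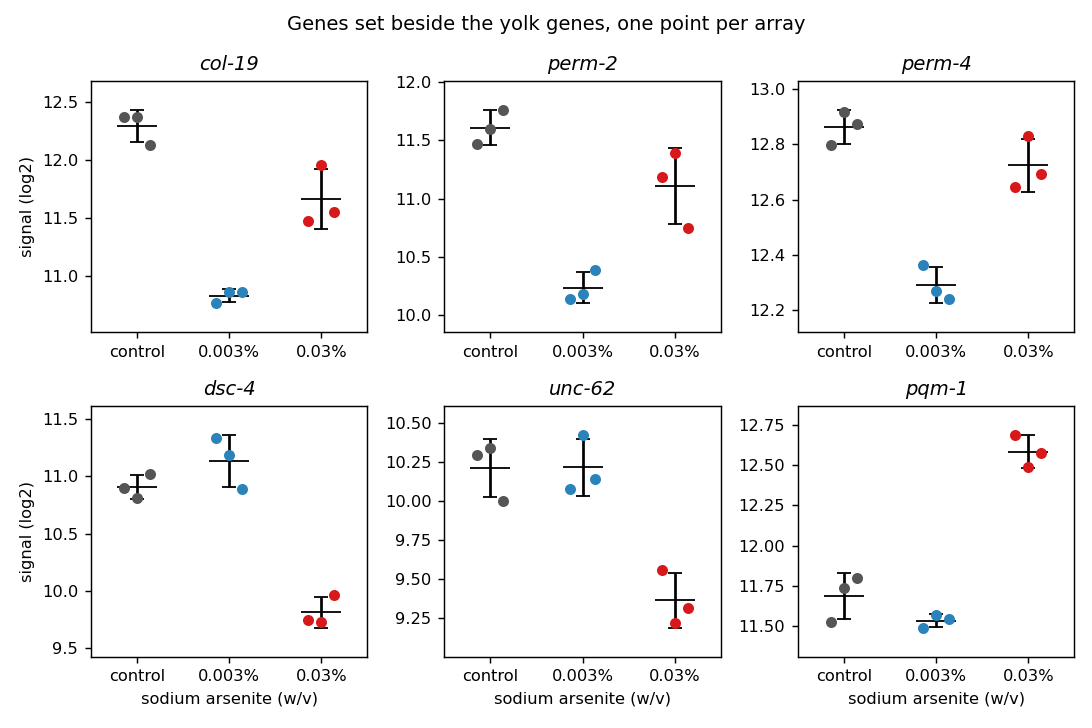
Signal on the log2 scale (vertical axes, each with its own range that does not start at 0) of col-19, perm-2, perm-4, dsc-4, unc-62 and pqm-1 in control worms and at 0.003% and 0.03% sodium arsenite. Points are arrays, and bars give the mean and SD of 3 arrays. The low dose is lowest for col-19, perm-2 and perm-4, while dsc-4, unc-62 and pqm-1 stand apart at the high dose.

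Likeness of pattern was described by Pearson's r over the 9 arrays, among 12832 genes above the dimmest 25%. The points fall into 3 groups of arrays, so r follows mostly the group means, and no p is given. Nearest to the mean of the 5 vitellogenins were T04G9.7 (r = 0.972), the transthyretin-related gene ttr-37 (0.967), the collagen gene col-184 (0.965), F27C1.1 (0.958) and smz-1 (0.958). Their choice by likeness fixes the direction of their differences, which for T04G9.7, ttr-37 and col-184 were -1.04, -0.98 and -0.94 on the log2 scale at the low dose. Nearest to rme-2 were the adenylosuccinate lyase gene adsl-1 (r = 0.980), the cytochrome P450 gene cyp-25A2 (0.978), mei-2 (0.959), F49C12.7 (0.958) and F47G4.4 (0.955). Among these, F49C12.7 had log2 differences of -4.68 (high dose) and -2.96 (low dose) from control. Within the family, r was highest between vit-4 and vit-5 (0.975), whose probesets may share transcripts, and lowest between vit-1 and vit-2 (0.696). With rme-2 it was 0.878 for vit-1 and 0.448 for vit-2.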

How the data were processed

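Each of the 9 samples, RNA of whole worms, was read on an Affymetrix C. elegans array of its own. The deposited values are log2 signals that the authors summarized per probeset and array, with 41 of them below 0. The methods name RMA, while the processing notes name Partek 6.4 and MAS5, and which made these values is not settled. The tests by gene used the 20766 of 22625 probesets with a single gene, and the probesets shared by vit-4 and vit-5 were tested among all probesets. Per gene the probeset with the highest mean was used, which gave 17118 genes. Gene names and neighbours came from the array's annotation and the RefSeq table of WBcel235. The groups were compared in limma 3.58.1 (R 4.3.3) with lmFit and eBayes, in a single model of 9 arrays without covariates and 6 residual degrees of freedom per gene, after a test on simulated data. No scaling was added. Differences within arrays were compared with exact permutation tests. Sequences were not used here. The number of arrays limits the precision.

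The 7 genes, the lists (regulators of vitellogenin transcription, yolk secretion and receptor-mediated uptake, intestine, oocyte and eggshell, germ line, sperm, and adult and late larval cuticle) and the tests were chosen with earlier results of these data known. Named were, per list, the 3 called genes highest and the 3 called genes lowest at the high dose by log2 difference, 11 regulators and uptake genes whatever their values, and the 5 genes nearest in pattern. Genes outside this rule are named as such where they occur. Deviations from the group means of same-numbered arrays in different groups had a correlation over 0.1 in 0 of 9 cases. As alternatives, the fold threshold, the dim genes, the choice of probeset, the scaling, the variance model, the samples fitted, the replicate number as a block and single arrays were varied.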

Additional observations from a re-analysis of the deposited data

How the results depend on the processing

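When the tests of the 6 genes were repeated under each alternative, 322 kept their side of the threshold, 24 lost a call and 14 gained one, and 0 changed direction with a call. These include the main fit without a fold threshold and with 1.5 fold. None of the 6 genes had an adjusted p of at most 0.05 with a change under 1.5 fold, so these settings could not move them. The differences of vit-2, vit-4 and vit-6 from control at the low dose and of vit-1 and rme-2 at the high dose passed under all alternatives with 1 level per gene. The difference of vit-2 between the doses did so too, with a limma adjusted p of up to 0.0404. With every probeset tested separately, the dim probeset of vit-4 did not pass at the low dose (log2 difference -1.94, limma adjusted p = 0.323 over all probesets). The count of genes called at the high dose, 5, ranged from 3 to 5 with 1 array left out, and that at the low dose, 4, from 3 to 5. Between the doses the count of 2 ranged from 1 to 3 with 1 array left out and was 1 with only the dose groups fitted. With the dimmer 50% of genes left out, or with a variance trend and robust estimation, all 6 genes were called at both doses, vit-2 at the high dose with an adjusted p of 0.0256 and 0.0292 in limma. More genes in all were called at the high dose there. They were 3839 among the brighter 50% alone and 4225 with the variance trend, against 3418 in the main fit. With the replicate number as a block the counts of the 6 genes called were 5 at the high dose, 3 at the low dose and 2 between the doses. The lost call was that of vit-1 at the low dose (adjusted p = 0.0510 in limma), and no other call of these genes changed. Without moderation of the variance the calls of vit-1 at the low dose (adjusted p = 0.05998) and vit-5 at the high dose (adjusted p = 0.0503) were lost, and that of vit-5 also with only the compared groups fitted (adjusted p = 0.0653). Since the labels do not say that the numbers pair the arrays, the block is given here alone. In 11 of 18 cases an array correlated best with its own number, so whether the numbers pair the arrays is not settled. The 266 genes called in all at the low dose were 533 and 545 under the dim filter and the variance trend, 139 with only the compared groups, 160 with the block, and 170 to 174 without control replicates 2 or 3 or low dose replicates 1 or 2. The cause was not tested.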

Other observations

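Germ line and sperm genes had median differences from control that were nearer to 0 than those of the yolk genes. Of 15 germ line genes, 4 were called lower at the high dose in limma (11% of all genes tested), with a median log2 difference of -0.17. At the low dose 0 were called lower (0.508% of all genes tested) and 1 had an unadjusted p under 0.05 (11.7% of all genes tested), with a median of -0.14. The P granule helicase gene glh-1 fell by 0.86 (SE 0.11), pgl-1, another P granule gene, by 0.58 (SE 0.14) and gld-1, a translational repressor of the germ line, by 0.48 (SE 0.10) on the log2 scale at the high dose. Of 29 sperm genes measured among 36 listed, 1 was called lower at each dose, against 11% (high dose) and 0.508% (low dose) of all genes tested, with medians of -0.25 (high dose) and -0.26 (low dose). The arrays of the high dose lay entirely below those of control for 23 of the 29 (21.7% of all genes tested), and those of the low dose for 20 (9.59%). Most of the sperm genes measured belong to the msp family, and whether their probesets detect each other's transcripts was not tested. The called genes were spe-4 at the high dose (log2 difference -0.47, adjusted p = 0.0328 from limma) and spe-11 at the low dose (log2 difference -0.68, adjusted p = 0.0395 from limma), the second chosen after its values were seen. The mean level of the sperm list per array was 13.08 to 13.19 in the high dose group and 13.11 to 13.18 at the low dose, against 13.36 to 13.41 in control worms. The 15 germ line genes ran from 10.63 to 10.67 at the high dose and from 10.68 to 10.80 at the low dose, against 10.81 to 10.92 in control worms.

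Within groups, replicate 2 was the highest array for 5 of the 5 vitellogenins at the low dose and for 5 of the 5 in control worms, while at the high dose replicate 3 was the highest for 3 and replicate 2 for 2. The lowest array was replicate 1 for 5 of the 5 at the high dose, replicate 3 for 4 at the low dose and replicate 1 for 4 in control worms. The vitellogenins are no replicates of each other, and the share over all genes was not taken.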
